A study of Mus musculus with 8 samples.

Results

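Transcript levels were compared between mouse embryonic stem cells of the wild-type J1 line and Rex-1 knockout cells, as the labels name them, both kept in medium with leukemia inhibitory factor (LIF). The comparison used the 4 arrays titled as cultured with LIF, out of 8 in the series: 2 of J1 cells and 2 titled Rex KO. The other 4 arrays held the same lines, titled as lacking LIF (12 hours, in a text given alike for all samples). Each pair of arrays in a group consists of one array with a plain number, here the first array, and one with the same number and the letter r, here the r array. The series text calls them biological replicates, and the labels do not say what the letter marks, so the p-values here reflect how far such arrays differ, which may be technical. All samples share the J1 source and a monolayer culture on gelatin in serum medium. The deletion that makes the knockout, the number of knockout clones and their passage are not given in the sources used here, so a difference between lines and an effect of the gene cannot be told apart.

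Rex-1 is a zinc finger protein of the YY1 family, encoded by Zfp42, and its transcript is a classical marker of undifferentiated mouse embryonic stem cells. LIF acts through its receptor and STAT3 to keep such cells self-renewing in serum culture. In this state the naive pluripotency factors are expressed, whereas genes of the primed epiblast and of the germ layers are low and appear as cells leave the naive state. Rex-1 is also known for its part in regulating Xist, the noncoding RNA that silences an X chromosome.

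Values were linear signal intensities per probe set, taken to log2. Those whose log2 values averaged 8 or more over the 8 arrays were kept, which left 14892 of 45037, with one symbol each for 13638 of them and 8365 genes in all. The lowest mean kept was 8.00009 and the highest left out 7.99992. A gene was represented by its kept probe set of highest mean. The median signal of the kept probe sets was 824 to 881 over the 8 arrays, so the arrays had similar scales. The arrays separated by the letter before they separated by line. The first principal component held 43.1% of the variance, with the 4 first arrays at -26.9 to -12.4 and the 4 r arrays at 7.39 to 34.2, and the knockout-labelled r array with LIF lay farthest out. For each probe set the difference of the first arrays and that of the r arrays are therefore given separately.

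Zfp42, the gene named as knocked out, gave signals of 18482 and 23255 in the J1 arrays (first array, then r array, here and below) and 17997 and 17282 in the arrays labelled knockout. The knockout-labelled arrays lay below the J1 arrays, by a mean log2 difference of -0.23 (SE 0.17), and limma gave it an adjusted p of 1.00. The sources do not say whether the probes lie inside the deleted stretch, and probes outside it say nothing about the labels, so every direction is stated for the arrays as labelled. The cells carried their own markers: 11 of 11 measured markers of undifferentiated embryonic stem cells were kept, with signals that summed to 99610 and 130940 in J1 and 111846 and 121395 in the knockout-labelled arrays, taking 1 probe set per gene. Of the markers of other cell types, 3 of 14 for fibroblasts or feeders, 6 of 18 for primitive or visceral endoderm, 3 of 15 for trophoblast and 1 of 11 for mesoderm were kept. The 3 kept fibroblast or feeder markers, Acta2, Tagln and Col1a2, summed to 9923 and 1330 in the J1 arrays and 2184 and 1483 in the knockout-labelled arrays. Over all probe sets of the 14 measured markers the sums were 12546 and 2737 against 3693 and 3564. The first J1 array stood apart from the other 3 by either sum. Without LIF the first J1 array was high as well, with 9895 for the 3 kept markers against 978 in the J1 r array. The knockout-labelled arrays had 2352 and 1322 there. In such bulk RNA, fewer cells of a type and less RNA per cell cannot be told apart.

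The difference between the lines was small for most transcripts and was led by a short list of genes. Among the genes that lay higher in both knockout-labelled arrays were Usp17la, a ubiquitin-specific protease of the USP17 family, Bmp4, a ligand of the BMP pathway, and the unnamed gene models Gm7969 and AF067061. Lower in both were Xist, Fxyd6, a regulator of the sodium pump, the neural transcription factor gene Sox11, the ephrin receptor gene Epha4, the cyclin gene Ccnd2 and the tight junction gene Cldn6. The folds of these genes ran from 1.93 to 4.02 in the higher direction and from 2.07 to 3.24 in the lower.

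A moderated linear model (limma) with one mean per group called 0 of 14892 probe sets at a Benjamini-Hochberg adjusted p under 0.05 (0%), the smallest adjusted p being 0.965. An unadjusted p under 0.05 was reached by 674 probe sets (4.53%), 279 of them higher and 395 lower in the knockout-labelled arrays. With the letter r as a block, which compares first with first and r with r arrays, 3 probe sets were called (0.0201%) and 1576 had an unadjusted p under 0.05 (10.6%). Without the knockout-labelled first array, the unadjusted count without the block was 1263. For a single value, an exact permutation test of 2 arrays against 2 cannot go below p = 0.333.

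The 3 probe sets that passed with the block rose in the knockout-labelled arrays. Usp17la gave 170 and 286 in the J1 arrays and 577 and 926 in the knockout-labelled arrays. Both knockout-labelled values lay above both J1 values, by 1.77 in the first and 1.69 in the r arrays on the log2 scale. The mean difference was 1.73 (SE 0.14 with the block), a 3.32-fold higher level, with an adjusted p from limma of 0.0409 with the block and 1.00 without it. Probe set 1443961_at gave 696 and 1674 in J1 and 3963 and 6919 in the knockout-labelled arrays. Its log2 difference was 2.28 (SE 0.15 with the block), with an adjusted p from limma of 0.0184 with the block and 1.00 without. Probe set 1457033_at gave 519 and 1166 in J1 and 2145 and 5823 in the knockout-labelled arrays, a log2 difference of 2.18 (SE 0.14 with the block) with the same adjusted p values. The annotation lists 7 and 6 gene symbols for these probe sets, so neither is named. In all 3 the r array of each line read higher than its first array, and the groups did not overlap. With each of the 8 arrays left out in turn, 0 to 3 probe sets were called. All 3 stayed called without either J1 array lacking LIF, and 0 of the 3 did without any one of the other 6 arrays.

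The comparison without LIF shares no array with that with LIF, so its differences come from separate arrays. The block fit modelled all arrays together, however, and each probe set had the same error estimate in both comparisons. A call without LIF is therefore not a separate test of a call with LIF. In the arrays without LIF the block fit called 4 probe sets (0.0269%), and 2 of the 3 were among them. Probe set 1443961_at gave 687 and 1601 in J1 and 3469 and 6958 in the knockout-labelled arrays there. For 1457033_at the signals were 617 and 1371 against 2094 and 5889. Both had an adjusted p from limma with the block of 0.0333. Usp17la read 252 and 344 in J1 against 544 and 984, a log2 difference of 1.31 with an adjusted p of 0.0984 with the block. Its knockout-labelled arrays again lay above both J1 arrays.

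Promoter sequences are shown for some of the leading genes of each direction, since Rex-1 shares its zinc fingers with YY1 and binds related DNA. They come from the RefSeq promoter table (GRCm38.p6, 250 bases before to 50 after the annotated start). AF067061, ranked 3 among the higher genes, also has an entry, which held 0 matches to the motifs below and is not shown. Capitals mark matches, on either strand, to GCCAT, the core of the YY1 motif, and to its longer form GCCATNTT, which holds the core. The windows lie at chr7:104856766-104857065 (plus strand) for Usp17la, chr9:45369935-45370234 (plus) for Fxyd6, chrX:103483184-103483483 (minus) for Xist and chr12:27342669-27342968 (minus) for Sox11.
Usp17la: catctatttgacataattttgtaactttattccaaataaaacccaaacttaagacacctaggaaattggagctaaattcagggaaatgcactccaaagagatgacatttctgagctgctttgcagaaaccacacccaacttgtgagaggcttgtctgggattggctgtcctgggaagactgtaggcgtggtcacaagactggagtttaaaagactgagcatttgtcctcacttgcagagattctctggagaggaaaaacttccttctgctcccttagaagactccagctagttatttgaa
Fxyd6: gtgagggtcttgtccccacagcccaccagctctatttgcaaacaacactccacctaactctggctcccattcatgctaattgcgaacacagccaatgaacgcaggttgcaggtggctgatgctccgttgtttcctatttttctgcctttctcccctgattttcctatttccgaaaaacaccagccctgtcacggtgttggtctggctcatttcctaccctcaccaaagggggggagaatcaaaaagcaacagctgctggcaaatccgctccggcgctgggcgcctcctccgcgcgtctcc
Xist: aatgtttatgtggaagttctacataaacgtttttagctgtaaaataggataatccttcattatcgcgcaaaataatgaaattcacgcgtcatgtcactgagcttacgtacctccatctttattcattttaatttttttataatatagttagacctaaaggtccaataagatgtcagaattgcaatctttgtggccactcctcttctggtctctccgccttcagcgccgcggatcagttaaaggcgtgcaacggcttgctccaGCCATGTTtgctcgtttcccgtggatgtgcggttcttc
Sox11: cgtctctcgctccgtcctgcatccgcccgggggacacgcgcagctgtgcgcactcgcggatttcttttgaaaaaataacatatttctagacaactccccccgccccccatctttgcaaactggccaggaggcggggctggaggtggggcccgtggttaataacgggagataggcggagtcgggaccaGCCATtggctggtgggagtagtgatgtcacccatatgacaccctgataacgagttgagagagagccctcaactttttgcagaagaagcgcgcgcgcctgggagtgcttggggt
The Xist window held 1 match to the core, which was also a match to the longer form, the Sox11 window held 1 match to the core, and the other 2 held none. Of the 12 higher and 12 lower genes described next, 7 and 9 have a promoter in the table. The core was found in 3 of the 7 and 4 of the 9, beside 40.9% of all 27025 promoters. The longer form was found in 0 of the 7 and in 3 of the 9, those of Xist, Rbck1 and Irak1, beside 6.23% of all promoters. A match describes letters in the window and is not evidence of binding.

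Genes were ranked by the smaller of their first-array and r-array differences among those whose groups did not overlap. Of all kept probe sets, 1784 (12%) had both knockout-labelled arrays above both J1 arrays and 2348 (15.8%) had both below. Over genes the counts were 1048 (12.5%) and 1291 (15.4%). The 24 genes at the top of this ranking were chosen by these values, so their levels with LIF are a description and carry no test.

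**Figure D1:**
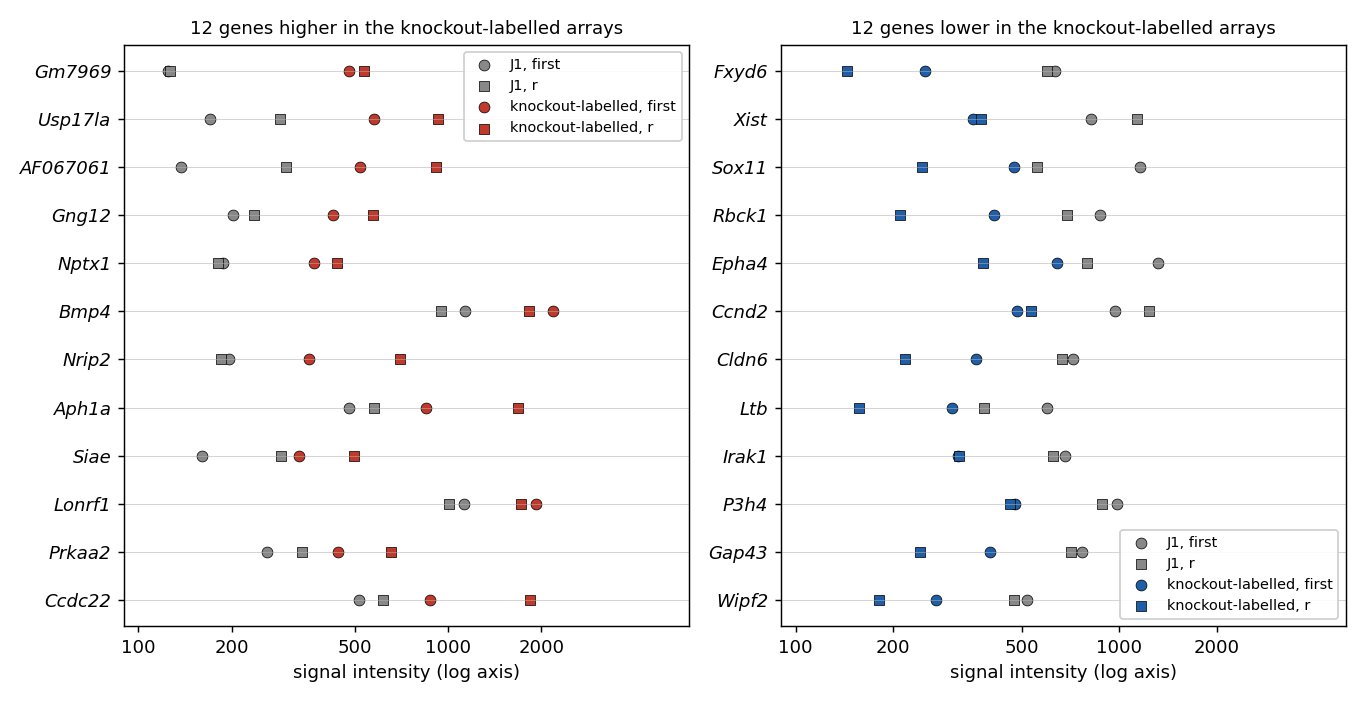
Signal intensity (log axis) of the 12 genes that ranked first among those higher and the 12 that ranked first among those lower in the knockout-labelled arrays with LIF. Grey marks are J1 arrays and coloured marks knockout-labelled arrays, circles the first and squares the r arrays, with 1 point per array. Gm7969 sits at 125 and 127 in J1 and at 479 and 534 in the knockout-labelled arrays, the clearest gap of the higher genes.

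Gm7969, a predicted gene on chromosome 13, gave 125 and 127 in J1 and 479 and 534 in the knockout-labelled arrays. The replicate arrays nearly coincided within each line, and the level was 4.02-fold higher in the knockout-labelled cells. Another of its probe sets, just under the floor, differed by 1.94 in the first and 1.12 in the r arrays. AF067061, also on chromosome 13, gave 137 and 299 against 521 and 916, again with no overlap. Both are read by probe sets of the _x_at type, which Affymetrix marks as sharing probes with other sequences, so reads from related copies cannot be separated.

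Among signalling genes, Bmp4 gave 1133 and 947 in J1 and 2179 and 1824 in the knockout-labelled arrays. Its difference was the same in both pairs, 0.94 in the first and 0.95 in the r arrays (mean 0.94, SE 0.32, a 1.93-fold higher level). Gng12, a G protein gamma subunit, gave 202 and 237 against 426 and 571. Prkaa2, the alpha 2 catalytic subunit of the energy sensor AMPK, gave 260 and 337 against 442 and 655. Nptx1, a secreted neuronal pentraxin, gave 187 and 181 against 369 and 437. In these 3 genes every knockout-labelled value of the ranked probe set lay above every J1 value, by a fold of similar size in each pair. The other Gng12 probe set, below the floor, differed by -0.85 in the first and 0.99 in the r arrays. Other probe sets of Nptx1 and Prkaa2 were higher in both pairs.

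The remaining higher genes were less even between pairs. Aph1a, a gamma-secretase subunit, gave 480 and 576 in J1 and 849 and 1680 in the knockout-labelled arrays, and Ccdc22, a component of the endosomal CCC complex, gave 517 and 617 against 872 and 1845. Nrip2, which binds nuclear receptors, gave 197 and 185 against 357 and 700. In these the knockout-labelled r array stood far above the other 3. The other Ccdc22 probe set above the floor differed by 0.03 and 0.02. Lonrf1, a RING finger protein gene, was even, with 1126 and 1005 against 1927 and 1718. Siae, a sialic acid acetylesterase, gave 161 and 289 against 330 and 496, where the J1 r array nearly reached the knockout-labelled first array.

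On the lower side, Xist gave 820 and 1131 in J1 and 353 and 375 in the knockout-labelled arrays. The level in the knockout-labelled arrays was 2.65-fold lower, with log2 differences of -1.22 in the first and -1.59 in the r arrays (mean -1.40, SE 0.22), and it did not pass the adjusted test in either fit (adjusted p from limma 0.965, and 0.0851 with the block). The other Xist probe sets lay below the floor and gave opposite directions in the first and the r arrays, so the difference rests on 1 probe set. The 2 kept members of the Y-linked gene list had a median difference of -0.04 between the lines, which joined 0.20 in the first and -0.29 in the r arrays.

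Fxyd6 gave 634 and 600 in J1 against 251 and 144, a 3.24-fold lower level, the widest gap of the 12. Ccnd2, the gene of the G1 cyclin D2, gave 971 and 1238 against 483 and 534. Of its other probe sets above the floor, those at log2 differences of -1.33 and -1.18 also lay at least 2-fold lower in both pairs, and a further one differed by -0.80. The 4 Ccnd2 probe sets thus agreed in direction in both pairs, while 2 other probe sets of Irak1 above the floor had opposite signs in the first and the r arrays. Irak1, a kinase of interleukin-1 and Toll-like receptor signalling, gave 680 and 624 against 319 and 319 with the ranked probe set.

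The other lower genes had signals as follows. Sox11 gave 1163 and 556 in J1 and 474 and 246 in the knockout-labelled arrays. Gap43, a growth cone protein, gave 768 and 709 against 399 and 242. Epha4 gave 1314 and 793 against 641 and 380. Sox11 and Epha4 read lower in the r than in the first array of both lines, and their differences were alike in both pairs, at -1.30 and -1.18 for Sox11 and -1.03 and -1.06 for Epha4. Of the 5 other Sox11 probe sets, all below the floor, 2 were lower in both pairs, and the rest had positive differences in the r arrays. The 2 other Epha4 probe sets above the floor were lower by less, at -0.17 and -0.29 for one and -0.98 and -0.22 for the other. Cldn6, a claudin of epithelial tight junctions, gave 718 and 666 against 362 and 218. Wipf2, which binds WASP family regulators of actin, gave 520 and 474 against 272 and 181. P3h4, which takes part in collagen modification in the endoplasmic reticulum, gave 982 and 886 against 476 and 460, with little spread within either line. Rbck1, a subunit of the linear ubiquitin chain complex, gave 873 and 688 against 412 and 210. Ltb, the gene of lymphotoxin beta, gave 599 and 381 against 305 and 157, so that its J1 r array lay near the knockout-labelled first array.

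Of the 24 genes, 14 had other probe sets. Of the 11 of these above the floor, 9 had the direction of the ranked probe set in both pairs. Below the floor 12 of 24 did.

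A stricter view asks for a difference of at least 2-fold in the first and in the r arrays alike. The first arrays alone held 52 probe sets at least 2-fold higher and 135 lower, and the r arrays 185 and 190. Those past 2-fold in both numbered 16 higher (0.107%) and 14 lower (0.094%). With the arrays paired crosswise the counts were 8 and 8. The 16 higher ones included 8 with one gene symbol, 4 with several and 4 with none listed. The 14 lower ones included 13 with one symbol, from 11 genes.

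**Figure D2:**
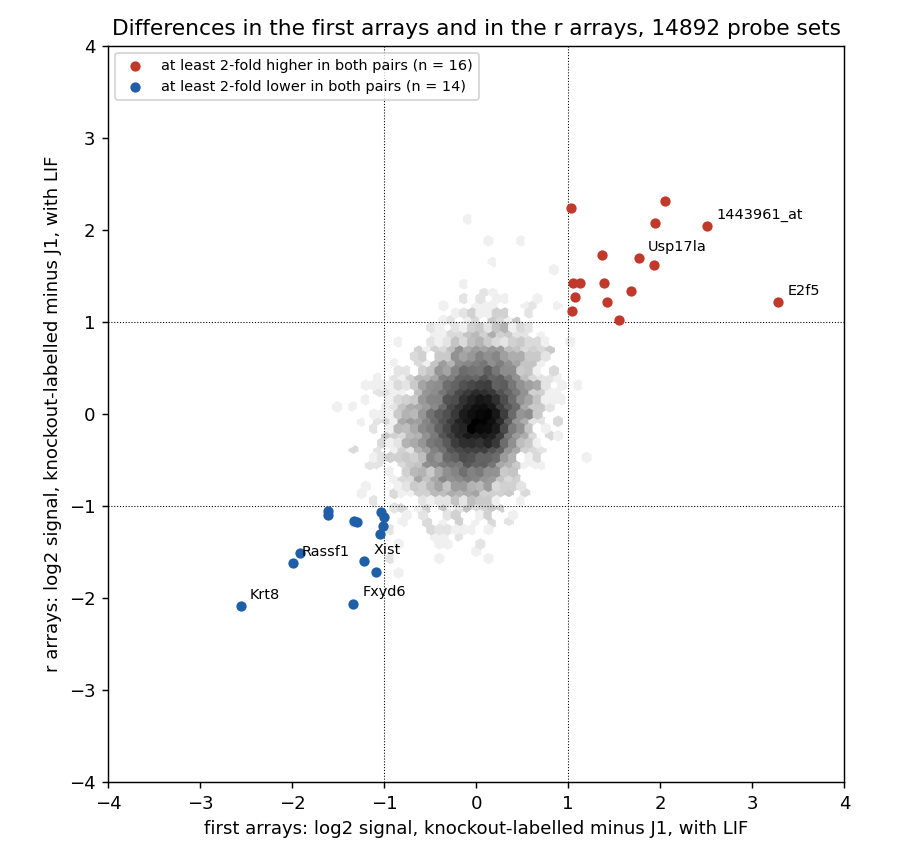
Log2 difference, knockout-labelled minus J1 with LIF, in the first arrays (x axis) and the r arrays (y axis) for 14892 probe sets, shaded by their number on a log scale. Coloured points are the 16 probe sets at least 2-fold higher and the 14 at least 2-fold lower in both pairs, dotted lines mark a difference of 1, and most probe sets form a round cloud at 0 (Pearson 0.211).

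Several genes of this set lay outside the ranking above and were picked out after their values were seen, and for most of them other probe sets gave another answer. Rassf1, a Ras association domain gene, gave 742 and 360 in J1 and 186 and 118 in the knockout-labelled arrays with probe set 1448855_at, a difference of -1.99 in the first and -1.62 in the r arrays (adjusted p from limma 0.0593 with the block). Its other probe set above the floor gave positive differences, 0.20 and 1.41, so no direction is given for the gene. Krt8, the simple epithelial keratin 8, gave 5988 and 294 against 1019 and 69.3 with an _x_at probe set. The 2 other Krt8 probe sets above the floor differed by -2.06 and -1.996 in the first arrays and had positive differences in the r arrays, 0.96 and 0.10.

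On the higher side, E2f5, a cell cycle transcription factor gene, gave 202 and 2099 against 1970 and 4886, where the J1 r array lay above the knockout-labelled first array. Its 2 other probe sets above the floor differed by 0.03 and 0.00043 in the first arrays and by 0.20 and 0.05 in the r arrays. Tbca, a tubulin folding cofactor, gave 1626 and 1671 against 3330 and 7897, and its 3 other probe sets above the floor differed by 0.06 to 0.19 in the first and by -0.12 to -0.02 in the r arrays. For these genes the 2-fold difference was thus seen with 1 probe set of several.

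Marcks, an actin-binding kinase substrate, gave 790 and 196 in J1 against 316 and 87.5, and its 4 other probe sets above the floor were lower in both pairs. F3, tissue factor, has 1 probe set, which gave 1399 and 267 against 370 and 94.1. In both genes the first arrays of both lines were far above the r arrays, and the J1 r value lay below the knockout-labelled first value, so the groups overlapped although each pair differed by over 2-fold.

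Across all kept probe sets the first-array and r-array differences correlated weakly, with Pearson 0.211 and Spearman 0.174, as a description over probe sets that share arrays and scaling. The sign was the same for 55.3%. The median difference was 0.00433 in the first and -0.05 in the r arrays. Between the lines, the median absolute difference came to 0.17 (first arrays) and 0.21 (r arrays). Between first and r arrays it was 0.25 within J1 and 0.26 within the knockout-labelled cells, so the letter moved the typical probe set more than the line did.

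The arrays without LIF share no array with those that chose the 24 genes, but they carry the same letters, and the differences followed the letter. Across probe sets the difference between the lines with LIF correlated with that without LIF at 0.384 for first with first arrays and 0.478 for r with r arrays, and at 0.160 and 0.0427 across letters, as a description. The values without LIF are therefore not independent of those with LIF. Of the 12 higher genes, 11 also had a positive difference without LIF, 6 in both pairs, and in 6 the knockout-labelled arrays lay above both J1 arrays (12.6% of all genes did). Of the 12 lower genes, 11 had a negative difference, 10 in both pairs, and in 7 the groups did not overlap in that direction (14% of all genes). The median difference of the higher genes was 0.64 without and 1.17 with LIF, and that of the lower genes -0.82 and -1.20. In the limma fit 0 of the 24 passed the adjusted test without LIF, with 3 of the higher and 6 of the lower at an unadjusted p under 0.05. With the block, Gm7969 passed there (adjusted p from limma 0.0493), at 107 and 165 in J1 against 462 and 665. Its error estimate was again shared with the comparison with LIF.

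**Figure D3:**
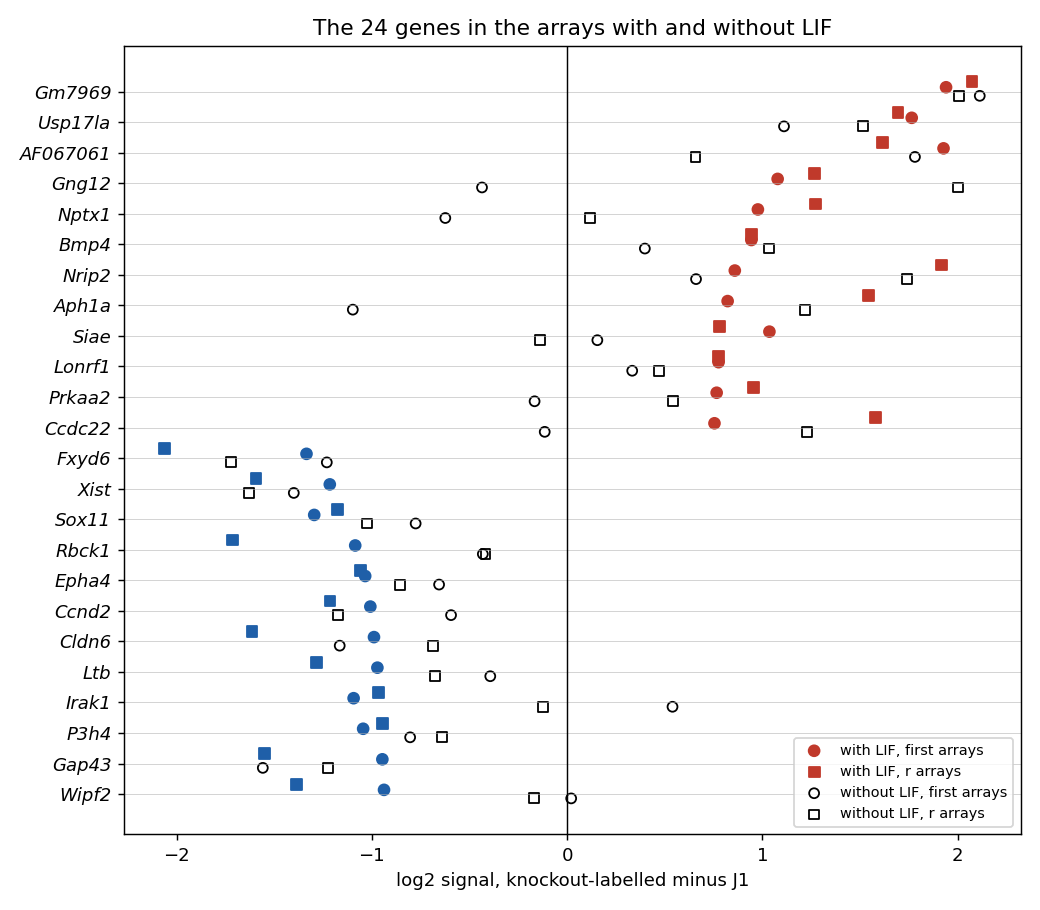
Log2 difference, knockout-labelled minus J1, of the 24 genes in the arrays with LIF (filled) and without LIF (open). Circles are first and squares r arrays, and each point is the difference of 1 array from 1 array. Gm7969 lies near 2 in all 4 pairs. The first-array differences of Gng12, Nptx1, Aph1a, Prkaa2, Ccdc22, Irak1 and Wipf2 are on the other side of 0 without LIF.

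Gm7969, Usp17la, Fxyd6, Xist, Sox11, Ccnd2, Cldn6, Epha4 and Gap43 kept their direction in both pairs without LIF. Xist gave 1010 and 1322 in J1 without LIF and 383 and 427 in the knockout-labelled arrays, a difference of -1.51. Gap43 gave 555 and 403 against 188 and 172, and Fxyd6 gave 530 and 423 against 226 and 128. Both lines thus held their gap in these genes in either medium. Nptx1 differed by 1.12 with and -0.25 without LIF, Irak1 by -1.03 and 0.21, and Wipf2 by -1.16 and -0.08. The test of the difference between the media itself had an unadjusted p of 0.00249 for Nptx1, 0.00205 for Irak1 and 0.0106 for Wipf2 in limma, with an adjusted p of 1.00 for each. These genes were chosen by their differences with LIF, which are part of that contrast, and then by their values without LIF. Their unadjusted p-values are therefore a description and not a test. Over all kept probe sets this interaction called 0, with 159 at an unadjusted p under 0.05 and 0 called with the block.

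Gene lists are described by counts and medians beside those of all 8365 genes, whose median difference was -0.02. In every list 0 members were called by limma, with or without the block, apart from Usp17la with the block. A member is counted as higher or lower where both knockout-labelled arrays lay beyond both J1 arrays, to be read against the 12.5% and 15.4% of all genes.

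**Figure D4:**
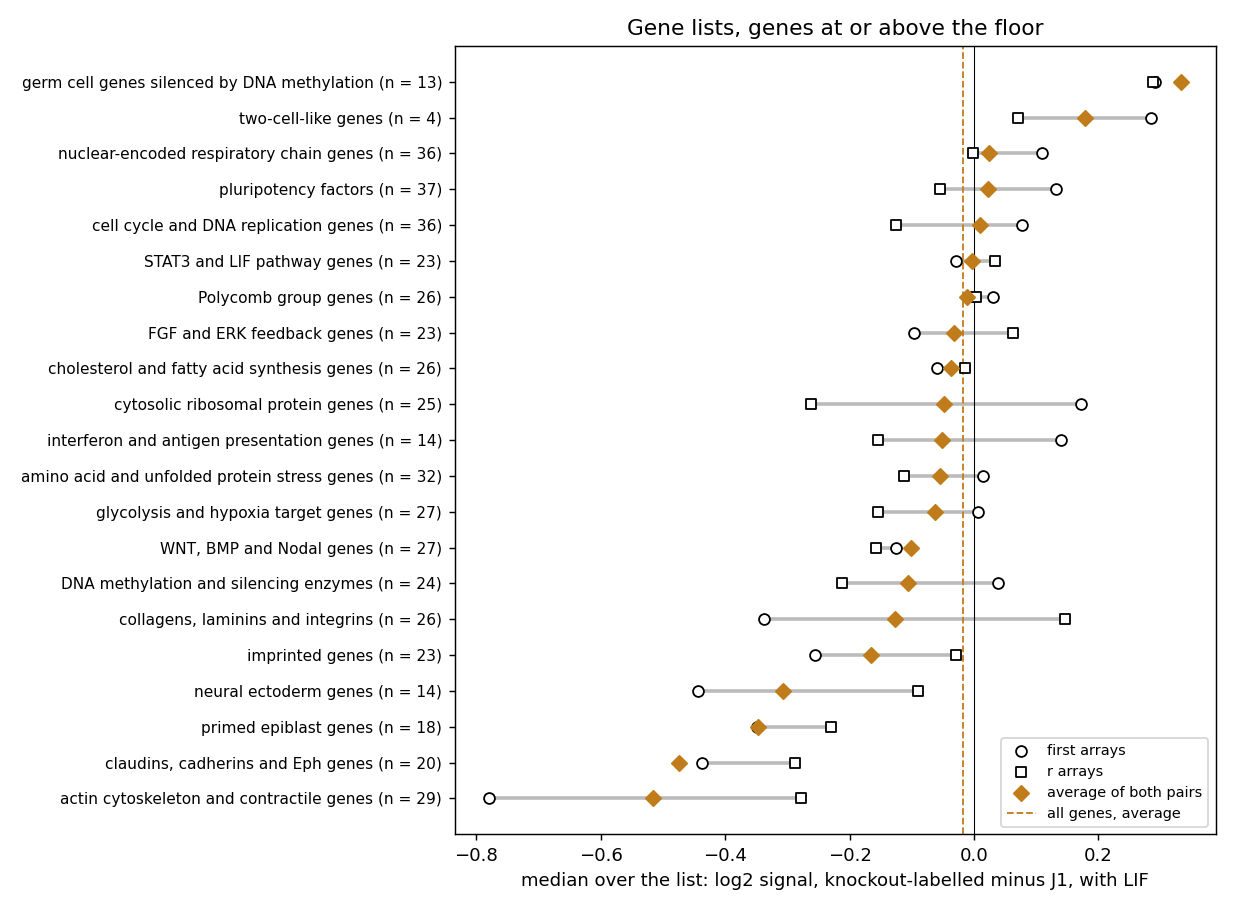
Median log2 difference, knockout-labelled minus J1 with LIF, of 21 gene lists, with the number of kept genes in brackets. Circles are the first arrays, squares the r arrays and diamonds the average of both pairs, and the dashed line is the median of all genes. The germ cell list lies highest at 0.33 and the actin cytoskeleton list lowest at -0.52.

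Pluripotency factors went in both directions. Of 37 pluripotency factors 4 were higher and 5 lower, with a median of 0.02, or 0.13 in the first and -0.06 in the r arrays. Pou5f1 gave 10460 and 12182 in J1 and 10881 and 10831 in the knockout-labelled arrays, Sox2 gave 12647 and 15117 against 13850 and 11117, and Nanog gave 6256 and 8448 against 8150 and 9701. For these 3 core transcription factors the groups overlapped, with mean differences of -0.06 (SE 0.16), -0.16 (SE 0.18) and 0.29 (SE 0.26). Tbx3, a T-box factor of the naive network, had the clearest positive value, with 932 and 731 against 1286 and 1448, a difference of 0.73 (SE 0.22). Esrrb, a nuclear receptor of the same network, gave 2537 and 2708 against 2983 and 3653. Lin28a, an RNA-binding protein that blocks let-7 processing, gave 3392 and 4586 against 3146 and 2767. Yy1, the relative of Zfp42, gave 6203 and 4780 against 6345 and 4910, and overlapped. The neighbours of Zfp42 on chromosome 8 differed by -0.07 (SE 0.33) for Triml1 and -0.11 (SE 0.17) for Fat1.

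Genes of the LIF pathway were mixed. Of 23 STAT3 and LIF pathway genes 6 were higher and 3 lower, with a median of -0.00374. Jak1, the kinase bound to the gp130 receptor chain, gave 824 and 815 in J1 and 1052 and 1104 in the knockout-labelled arrays, a difference of 0.39 (SE 0.16). Cish, a feedback inhibitor of cytokine signalling, gave 312 and 283 against 360 and 431. Junb, an immediate early transcription factor, had a difference of -0.47. Of 23 FGF and ERK feedback genes 2 were higher and 2 lower, with a median of -0.03.

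Of 18 primed epiblast genes 0 were higher and 5 lower, and 13 overlapped between the lines. A negative averaged difference was found for 17 of them, beside 53.3% of all genes. In both pairs 11 were lower and 1 was higher, beside 2513 and 2166 of all 8365 genes. The rest had opposite signs in the pairs, among them Otx2 (0.09 in the first and -0.23 in the r arrays) and Dnmt3b (0.32 and -0.64). Some lists described below were also one-sided in the averaged difference, though less so in the pairs taken separately. Negative averaged differences were found for 23 of 25 cytosolic ribosomal protein genes, 26 of 29 actin genes and 17 of 20 claudin, cadherin and Eph genes. Those lower in both pairs numbered 3, 16 and 14, and those higher in both pairs 1, 1 and 2. Cldn6, Cdh2 and Krt18 are in the last of these lists too. For the primed epiblast list the first arrays had a median of -0.35 and the r arrays one of -0.23. The list median kept its sign under each alternative run, between -0.56 and -0.19, and was -0.36 in the arrays without LIF. The 5 lower members were Cldn6, Sox11, Sox4, Dnmt3a and Fgfr1. Dnmt3a, a de novo DNA methyltransferase, gave 1692 and 1573 in J1 and 1146 and 941 in the knockout-labelled arrays, a difference of -0.65 (SE 0.17). Sox4, a SoxC factor like Sox11, gave 2955 and 1623 against 1278 and 915. Both genes had no overlap between the lines and were also lower without LIF, by -0.46 and -0.67.

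The neural ectoderm list shares Sox4 and Sox11 with it. Of 14 kept genes 0 were higher and 7 lower, with a median of -0.31 that was -0.44 in the first and -0.09 in the r arrays. Gap43 (-1.25), Sox11 (-1.24), Sox4 (-1.02) and Dpysl2 (-0.76), a neurite outgrowth protein, had the largest differences, and Pax6, Msi1 and Tubb2b were the others. Dpysl2 gave 993 and 775 in J1 against 564 and 476.

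Of 13 germ cell genes that are silenced by DNA methylation in somatic cells, 6 were higher and 0 lower. The other 7 overlapped, and 4 members, Sycp3, Rhox9, Hormad1 and Tdrd12, had a negative difference. The list had a median of 0.33, or 0.29 in each pair alone, and 0.25 to 0.40 under the alternatives. Dazl, an RNA-binding protein of germ cells, gave 346 and 291 in J1 and 437 and 572 in the knockout-labelled arrays. Mael, a piRNA pathway gene, gave 597 and 488 against 697 and 826. Rhox6, an X-linked homeobox gene that is also a trophoblast marker, gave 157 and 252 against 692 and 307, a gap of 2.14 in the first but 0.29 in the r arrays. Ddx4, Tex19.1 and Stk31 were the others, with differences of 0.44, 0.41 and 0.23. Without LIF 5 of the 13 were higher, with a median of 0.26. The 3 kept trophoblast markers, Rhox6 among them, summed to 1742 and 2406 in J1 and 3729 and 1953 in the knockout-labelled arrays, and their part in the result was not tested. Two-cell-like genes, named for a rare state resembling the 2-cell embryo, had 4 kept members, with Usp17la the one without overlap. All 4 had a positive averaged difference, but only 2 were higher in both pairs. Dppa4 and Eif1a were negative in the r arrays, at -0.06 and -0.17.

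Among DNA methylation and silencing enzymes, 1 was higher and 6 lower of 24, with a median of -0.11 that was 0.04 in the first and -0.21 in the r arrays. Mbd2, a methyl-CpG binding protein gene, gave 367 and 405 in J1 against 215 and 257, a difference of -0.72 (SE 0.17). Mbd3, a subunit of the NuRD complex, had -0.37, Dnmt1, the maintenance methyltransferase, -0.27, and Mbd4, a DNA glycosylase, 0.38. Of 26 Polycomb group genes 2 were higher and 0 lower, with a median of -0.01.

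Imprinted genes, which are expressed from a single parental allele, had 2 higher and 9 lower of 23, with a median of -0.17 that lay between -0.30 and -0.03 under the alternatives. Cdkn1c, a cyclin-dependent kinase inhibitor, gave 551 and 652 in J1 and 236 and 383 in the knockout-labelled arrays, a difference of -0.99 (SE 0.25). Phlda2, its neighbour in the same imprinted cluster, gave 2622 and 4217 against 2182 and 1748. Grb10, an adaptor that restrains growth factor signalling, gave 1295 and 1155 against 976 and 640. Igf2, Gnas, Mirg and Peg3 had differences of -0.94, -0.64, -0.54 and -0.27, and Kcnq1ot1 and Xist, which is imprinted in extraembryonic tissue, complete the 9. Magel2 and Copg2 were the 2 higher members. In the arrays without LIF 1 member was higher and 8 lower.

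The WNT, BMP and Nodal list had 2 higher and 9 lower of 27, with a median of -0.10. The higher members were the ligand Bmp4 and the BMP receptor gene Bmpr2 (0.30). Id2, a target of BMP signalling that inhibits basic helix-loop-helix factors, was lower, with 2313 and 2794 in J1 against 1254 and 1064, a difference of -1.14 (SE 0.28). The Nodal inhibitors Lefty1 and Lefty2 had -0.80 and -0.17. The WNT receptor gene Fzd2 gave 843 and 534 against 489 and 344, and Fzd7, Axin1 and Tcf7l1, a repressor of WNT targets, had -0.28, -0.25 and -0.40. Acvr2b and Tcf3, which is the E protein E2A under this symbol, were also lower. Without LIF the list had 3 higher and 4 lower members and a median of 0.04.

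Adhesion and cytoskeleton genes had the lowest medians, and these varied with the arrays used. Of 20 claudin, cadherin and Eph genes 0 were higher and 7 lower, with a median of -0.47, or -0.44 in the first and -0.29 in the r arrays. Of 29 actin cytoskeleton and contractile genes 0 were higher and 5 lower, with a median of -0.52, or -0.78 in the first and -0.28 in the r arrays. Without the first J1 array the medians were 0.03 and 0.01. Both knockout-labelled arrays are then set against the J1 r array alone, so the letter enters the difference. In the r arrays alone, which also leave out the first J1 array, both medians were negative. The first J1 array also held the highest sum of fibroblast or feeder markers among the 4 arrays with LIF. The first J1 array without LIF had a similar sum, as given above. The part of such cells in the result was not tested. Members without overlap included the following. Efnb2, an ephrin ligand, gave 601 and 376 in J1 against 327 and 186. Esrp1, an epithelial splicing factor, gave 419 and 618 against 294 and 276. Myl9, a myosin light chain, gave 895 and 750 against 542 and 490. Filamin A (Flna) gave 2551 and 2633 against 2083 and 1292. Of 26 collagens, laminins and integrins 1 was higher and 4 lower, with medians of -0.34 in the first and 0.15 in the r arrays. Fibronectin (Fn1) gave 3683 and 4536 against 2792 and 3088, and the integrin gene Itga5 gave 537 and 353 against 146 and 296.

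Metabolic and housekeeping lists had averaged medians between -0.06 and 0.02, which in some lists joined opposite signs. The cytosolic ribosomal protein list had medians of 0.17 in the first and -0.26 in the r arrays, and the interferon and antigen presentation list 0.14 and -0.15. Of 27 glycolysis and hypoxia target genes 2 were higher and 3 lower. One member, Ak4, a mitochondrial adenylate kinase induced in hypoxia, was even in all pairs: it gave 1510 and 1605 in J1 and 2653 and 2693 in the knockout-labelled arrays, a difference of 0.78 (SE 0.15), and 1362 and 1208 against 2182 and 2138 without LIF. Of 32 stress genes of the amino acid and unfolded protein responses 4 were higher, led by the disulfide isomerase gene Pdia4 (0.73), and 1 lower. The cholesterol and fatty acid list had 0 higher and 3 lower of 26, the respiratory chain list 1 and 0 of 36, the cytosolic ribosomal protein list 1 and 1 of 25, and the interferon and antigen presentation list 1 and 0 of 14. Cell cycle and DNA replication genes had 0 higher and 4 lower of 36, Ccnd2 and the kinase inhibitor gene Cdkn1a (-0.52) among the 4. Chromosome medians over genes ran from -0.06 on chromosome 1 to 0.01 on chromosome 6, leaving out the Y chromosome with 3 genes.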

How the data were processed

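The data were 8 Affymetrix arrays, 2 in each of 4 groups, grouped by their titles. The authors deposited linear signal intensity per probe set. Per the submitters' processing notes GCRMA was used, with no version or role. In each column the mean without the lowest and highest 2% was 500, so the step that made the values is not known, and how it affects low signals is unknown. The 64 control probe sets were left out and values taken to log2 with no pseudocount. limma 3.58.1 (R 4.3.3) modelled the 8 arrays together by group, each group having its own mean. Standard errors are from that fit unless the block is named. Between any pair of groups the r-minus-first differences had a correlation of 0.236 to 0.638, so the letter was taken to pair the arrays and the blocked fit is given where it changes a call. Symbols come from the platform annotation, with probe sets of several symbols unnamed. The genes named were the 12 of largest smaller pairwise difference per direction without overlap, some fixed genes, and up to 4 members of each list with the smallest p; other list members and the genes said to be picked out were picked with their values known. The 22 lists, 5 marker lists, rule and comparison were chosen with earlier results of these data known. On simulated data for this contrast (14892 probe sets), 20% of 2-fold, 82% of 4-fold and 98% of 16-fold changes were called without the block. There 10 unchanged probe sets were called too. The simulated noise was drawn separately for each array, with no shift by letter, so these shares need not hold for the real arrays. Figures used matplotlib 3.10.9.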

Additional observations from a re-analysis of the deposited data

How the results depend on the processing

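The unblocked counts of called probe sets stayed at 0 with LIF and at 0 without LIF under 17 alternatives each, among them other floors, quantile or median scaling, a pseudocount of 32, a robust variance trend and each array left out. With the replicate block the counts were 3 with LIF and 4 without, with block and quantile normalization 2 and 2, and with block, trend and robust fit 12 and 8. Those 12 were 8 higher and 4 lower, Gm7969, Tfpi, Xist, Sox11 and Rassf1 among them. With the block, leaving out each array in turn, an alternative chosen after seeing the data, called 0 to 3. The interaction count stayed at 0. The counts past 2-fold in both pairs, 16 higher and 14 lower, were 37 and 41 at a floor of 7, 6 and 0 at a floor of 10, 97 and 139 at 1.5-fold, and 8 and 8 with crossed pairs. With a pseudocount of 32, 8 were lower. Signs turned for genes near 0: Triml1 was 0.0584 in the r arrays alone and -0.4509 to 0.3191 with single arrays left out, Yy1 was -0.0986 as a mean of its probe sets and -0.1522 to 0.2236 with arrays left out, Pou5f1 was 0.057 in the first arrays and -0.1663 to 0.0536 with arrays left out, and Sox2 was 0.1311 and -0.3147 to 0.0024. The causes were not tested. No background value was used, so low signals carry an unknown share of background.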
